A study of Mus musculus with 24 samples.

Results

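Of 49669 H3K27ac peaks called in wild-type (WT) mouse forelimb buds on chromosomes 1 to 19 and X, 956 met the rule described here. These 956 had no overlapping peak in Shh-/- limb buds and overlapped an H3K27ac peak of NIH3T3 fibroblasts treated with the Hedgehog agonist purmorphamine. They overlapped no peak of the control fibroblasts, which received DMSO. They are the WT acetylated regions that follow the state of the Hedgehog pathway, by presence or absence from a list, in both an embryonic tissue and a cell line. The members were chosen by these 4 H3K27ac lists, so their H3K27ac values describe the choice and test nothing. Absence from a list means that no peak passed the authors' calling limits there, not that acetylation was absent. Sharing 1 bp counted as overlap.

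The chromatin immunoprecipitation and sequencing (ChIP-seq) data came from forelimb buds of stage E10.5 (32 to 35 somites) on a Swiss Webster background, either WT or Shh-/-, with 400000 cells per immunoprecipitation, and from NIH3T3 cells, an established mouse fibroblast line, with 1000000 cells per immunoprecipitation. By the study's methods the Shh-/- embryos carried the Shh tm1amc null allele in every cell, the WT group was a mixture of WT and heterozygous littermates, and buds of several embryos were pooled. NIH3T3 cells received 400 nM purmorphamine or DMSO for 48 hours, which the methods place in low serum and the labels describe with LIF in both arms. The limb buds also had H3K4me2 lists for both genotypes and an H3K27me3 list for Shh-/-. The labels name different H3K27ac antibodies for limb buds and fibroblasts. Between systems, presence was therefore compared, and log2 ratios only by their order within each list, not by their size. Each list pooled 2 replicates, hence a difference between lists has no replicate error here and no p-value is given. The depth per library is unknown from the lists.

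Sonic hedgehog binds the receptor Patched1 and so releases Smoothened, which purmorphamine activates directly. Active Smoothened stops the processing of GLI3 into a repressor and lets GLI proteins act as activators. The GLI factors bind DNA through zinc fingers at a short motif whose consensus is GACCACCCA. In the limb bud, Shh comes from the posterior margin and sets digit number and identity, and Gli1 and Ptch1 are transcribed in most tissues that receive the signal. H3K27ac marks active enhancers and promoters, H3K4me2 marks them whether acetylated or not, and H3K27me3 is the mark of Polycomb silencing.

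The GLI consensus is shown first because it is the sequence that the pathway's own factors read. It occurred without mismatch in 8 members, searched as GACCACCCA on both strands, and 7 of these sites are printed on the strand of the motif, with 15 bp on either side and the motif in capitals. Each name is the nearest protein-coding start site. Sequence and positions are of GRCm38 (mm10).
Sertad4, chr1:192901737-192901775, minus strand: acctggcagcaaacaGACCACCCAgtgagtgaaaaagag
Cplx2, chr13:54332550-54332588, plus strand: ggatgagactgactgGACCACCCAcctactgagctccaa
Tgfbi, chr13:56612179-56612217, minus strand: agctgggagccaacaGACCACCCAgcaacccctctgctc
Smo, chr6:29719058-29719096, minus strand: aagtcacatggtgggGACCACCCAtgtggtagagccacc
Fzd2, chr11:102631354-102631392, plus strand: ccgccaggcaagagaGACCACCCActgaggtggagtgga
Cpn2, chr16:30190854-30190892, minus strand: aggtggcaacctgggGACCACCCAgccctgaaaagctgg
Ptgfrn, chr3:101112007-101112045, plus strand: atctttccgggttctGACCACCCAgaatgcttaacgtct
They lie from 1622 bp (Ptgfrn) to 76550 bp (Cpn2) from the nearest protein-coding start, and the Smo and Cpn2 members overlap a WT H3K4me2 peak. The search covered the whole WT peak. Of the 7 printed sites, only those of Tgfbi and Ptgfrn lie within the overlapping purmorphamine peak. The Sertad4, Cplx2, Smo, Fzd2 and Cpn2 sites lie in the part of the WT peak outside it.

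The share of members with the consensus was 0.837% (95% Wilson interval 0.425 to 1.64%, counting error only). It was 0.114% (0.0202 to 0.645%), or 1 of 875, among their counterparts, the WT peaks without a Shh-/- peak that overlapped the control list of NIH3T3 cells and not the purmorphamine list. It was 0.168% of 17290 WT peaks without a Shh-/- peak and with no NIH3T3 peak, and 0.364% of 4949 with a peak in both NIH3T3 lists. WT peaks that kept a Shh-/- peak and overlapped the purmorphamine list alone held it in 7 of 762 (0.919%, 0.446 to 1.88%); their median width was 400 bp, against 150 bp for members. In windows of one length, 300 bp around the peak centre, the shares were 0.628% (0.288 to 1.36%) of members, 0.114% of the counterparts, 0.262% (0.0720 to 0.952%) of the peaks that kept a Shh-/- peak and overlapped the purmorphamine list alone, and 0.252% of all WT peaks. Of 32851 RefSeq promoters of 300 bp (GRCm38), 0.253% held the motif. The interval of the members rests on 6 windows and holds the share of all WT peaks without a Shh-/- peak (0.291%) and of those in both NIH3T3 lists (0.424%). With 1 mismatch allowed, 10.1% (8.39 to 12.2%) of member windows held a match, against 7.09% (5.57 to 8.98%) of counterpart windows. The share was 5.70% with no NIH3T3 peak, 7.21% in both NIH3T3 lists and 6.01% of all WT windows. It was 6.17% of peaks that kept a Shh-/- peak and overlapped the purmorphamine list alone. In the same order, median G and C of the windows was 48.7%, 45.7%, 44.0%, 51.3%, 47.0% and 48.3%. The part of base composition in these shares was not tested. A match is a run of letters and not a bound site.

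A stretch of 300 bp is given for 3 members, with each match of up to 1 mismatch in capitals: the best-ranked member that holds the consensus (nearest start Sertad4), the best-ranked member in Gli1, and the best-ranked member of the group upstream of Ptch1 described below.
Sertad4 distal, chr1:192901606-192901905, plus strand: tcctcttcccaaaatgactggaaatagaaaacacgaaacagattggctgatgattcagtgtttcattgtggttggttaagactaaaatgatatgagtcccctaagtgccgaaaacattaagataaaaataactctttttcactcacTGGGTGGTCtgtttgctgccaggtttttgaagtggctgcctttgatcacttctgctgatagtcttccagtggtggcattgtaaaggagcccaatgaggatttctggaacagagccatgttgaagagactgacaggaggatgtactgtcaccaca
Gli1 intron, chr10:127339436-127339735, plus strand: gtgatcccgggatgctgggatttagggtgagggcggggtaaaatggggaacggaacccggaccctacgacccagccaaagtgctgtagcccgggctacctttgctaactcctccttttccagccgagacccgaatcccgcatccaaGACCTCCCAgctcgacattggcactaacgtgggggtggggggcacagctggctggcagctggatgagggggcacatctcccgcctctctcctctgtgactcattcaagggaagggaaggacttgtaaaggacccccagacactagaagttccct
Ptch1 upstream, chr13:63951228-63951527, plus strand: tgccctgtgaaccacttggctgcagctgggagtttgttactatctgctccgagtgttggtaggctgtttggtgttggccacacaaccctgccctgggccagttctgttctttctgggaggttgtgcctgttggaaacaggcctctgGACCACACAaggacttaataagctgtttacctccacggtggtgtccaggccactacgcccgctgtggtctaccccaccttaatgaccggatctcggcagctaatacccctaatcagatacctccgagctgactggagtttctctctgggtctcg
The Sertad4 stretch holds the exact motif on the minus strand. The match in the Gli1 intron differs from the consensus by A5T and that upstream of Ptch1 by C7A, counted from 1 at the 5′ end of the motif. The member at the start site of Gli1 holds 1 such match, at chr10:127341742-127341750, which differs by A9G. The Gli1 matches given here lie within purmorphamine peaks. The match upstream of Ptch1 and the Sertad4 motif lie outside any purmorphamine peak. The Gli1 window has 59.7% G and C, the Ptch1 window 55.0% and the Sertad4 window 42.3%.

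Gli1, a GLI activator that is itself switched on by the pathway, held the strongest of the members that lie at a Hedgehog gene. Within 20 kb of the gene there were 4 WT H3K27ac peaks, 3 of them without a Shh-/- peak, and all 3 were members. The first spans chr10:127339400-127339999 in an intron, 1975 bp inside the gene from the annotated start, with rank 2187 of the WT list and a largest log2 ratio of ChIP to input of 5.34. The second, chr10:127340100-127341499, covers part of an exon with untranslated region and had rank 3503 and a log2 ratio of 4.96. The third, chr10:127341650-127341949, ends 25 bp from the start site and was weak, with rank 26131 and a log2 ratio of 3.05.

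In purmorphamine-treated cells these 3 members fell under 2 peaks, with ranks 713 and 96 of 87809 and log2 ratios of 5.19 and 5.60. The nearest control peak was 26951 to 29201 bp away and the nearest Shh-/- peak 27701 to 29951 bp away. Gli1 was thus acetylated over its first exons in both Hedgehog-active lists, with no peak there in either Hedgehog-inactive list. H3K4me2 was listed at Gli1 in both genotypes: all 3 members overlapped a WT H3K4me2 peak, and 2 overlapped a Shh-/- H3K4me2 peak while the third lay 1 bp from one. The Shh-/- H3K4me2 peaks under the members had log2 ratios of 3.55, 2.66 and 2.37, and the first of the WT ones 3.80. All 3 also overlapped H3K27me3 in Shh-/- limb buds, in peaks with log2 ratios of 4.67 and 2.58, the stronger with rank 285 of its list.

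Smo, the transducer that purmorphamine binds, had 2 members 15954 and 16754 bp before its start site, in sequence between genes. The member chr6:29719000-29719549 had rank 29039 and a log2 ratio of 2.96 in WT and 3.68 with purmorphamine. It overlapped H3K4me2 in both genotypes and holds the GLI consensus, in the part outside the purmorphamine peak. The neighbouring chr6:29718650-29718749 was only 100 bp wide, with log2 ratios of 2.54 and 3.04. The nearest Shh-/- or control peak was at least 15201 bp from either. Other members at Hedgehog genes were weak in limb. They lay in introns of Tbx3, a T-box factor of limb patterning (rank 32064), of Gli3, the main limb GLI repressor (rank 45942), and of Sufu, a cytoplasmic inhibitor of GLI proteins (rank 47244). A control peak was 451 bp from the Tbx3 member and 401 bp from the Sufu member, and a Shh-/- peak 601 bp from the Gli3 member.

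**Figure D1:**
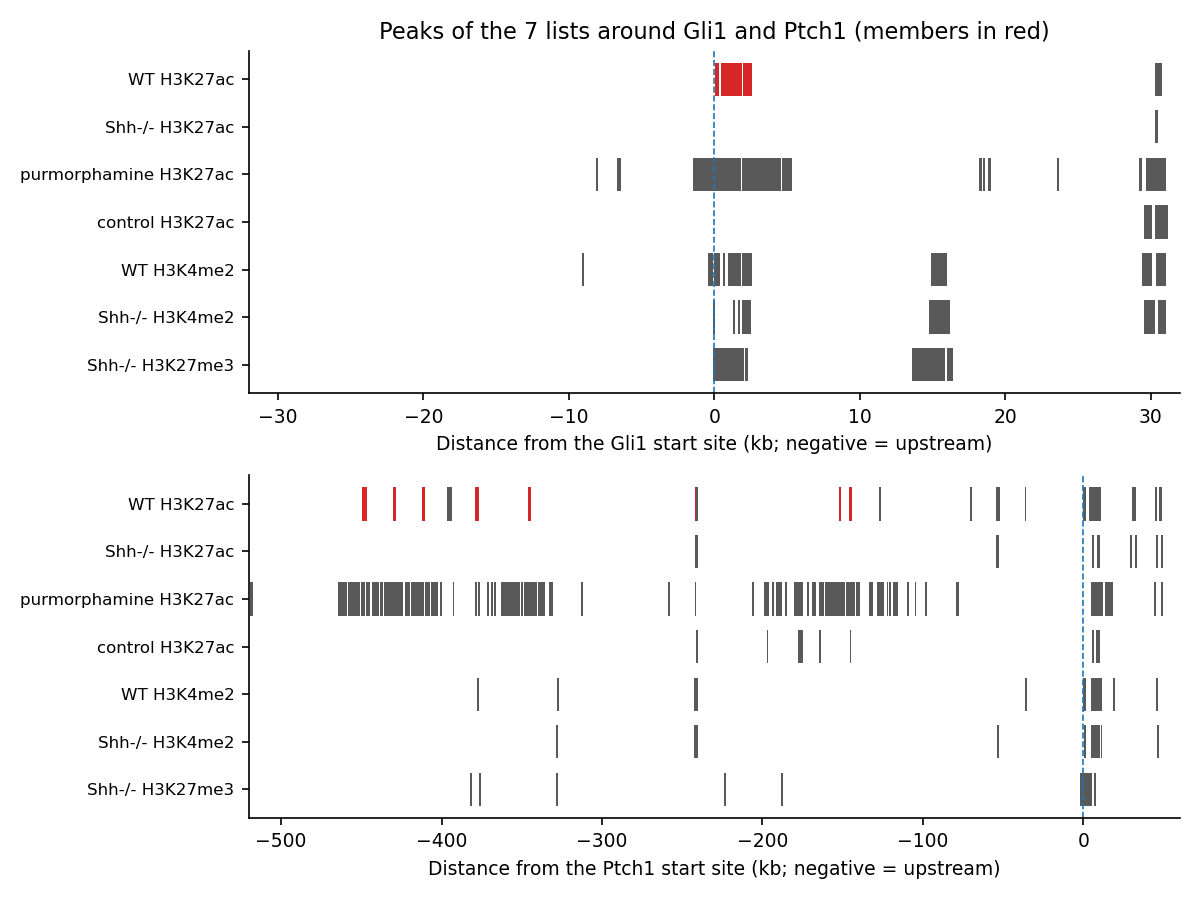
Position of the peaks of all 7 lists around the start sites of Gli1 and Ptch1, in kb along the direction of transcription (negative is upstream); each bar is a peak, drawn with a minimum width, and members are red. The H3K27ac rows of Shh-/- limb buds and control cells are empty at the Gli1 start site and between 345 and 449 kb upstream of Ptch1, where the WT and purmorphamine rows hold peaks.

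Ptch1 itself, the receptor and a target, had no member within 20 kb, although 6 of its 12 WT peaks there lacked a Shh-/- peak. The group with the most members in the genome lay far upstream of it. When members with at most 50 kb between neighbours were joined, 12 members formed a group at chr13:63918350-64022899, 345 to 449 kb upstream of the Ptch1 start site and nearest to the start sites of Ercc6l2 and Hsd17b3. Within its span there were 15 WT H3K27ac peaks and 53 purmorphamine peaks, and no Shh-/- or control peak. The nearest Shh-/- peak was 102751 to 167551 bp from each of the 12 and the nearest control peak 83201 to 137501 bp.

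The 12 members had WT log2 ratios between 2.51 and 4.53, and purmorphamine log2 ratios between 2.85 and 5.06. The member with the best limb rank, chr13:63950350-63952049 (rank 5632, log2 ratio 4.53), had a modest fibroblast peak of rank 31034 with a log2 ratio of 3.08. The highest fibroblast peak, of rank 1282, covered 3 members with limb ranks of 18234, 24335 and 46680. Limb and fibroblast peaks were thus both dense in the block but not tallest at the same positions. From 313 kb upstream to the limit of the map at 520 kb, the purmorphamine list had 83 peaks, WT H3K4me2 had 2 and Shh-/- H3K4me2 had 1. The 3 WT H3K27ac peaks of the block that were not members overlapped no purmorphamine peak. In all, 17 members lay between the start of Ptch1 and 520 kb upstream, 4 of them at chr13:63718850-63725949. Position gives linear distance only; these lists do not show which gene a region acts on.

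The members' own values were otherwise low in both systems. Their median width was 150 bp (100 to 2100 bp), the median WT rank 33355.5, and the median WT log2 ratio 2.84 (2.38 to 5.88), against 2.83 over all 24070 WT peaks without a Shh-/- peak and 3.09 over all WT peaks. The overlapping purmorphamine peaks had a median rank of 35203.5 and a median log2 ratio of 2.96 (2.21 to 5.97). They were 901 distinct peaks, and 104 members shared one with another member. Across the 956 members Spearman's rho between WT and purmorphamine log2 ratios was -0.086, as a description over neighbouring peaks that share libraries.

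**Figure D2:**
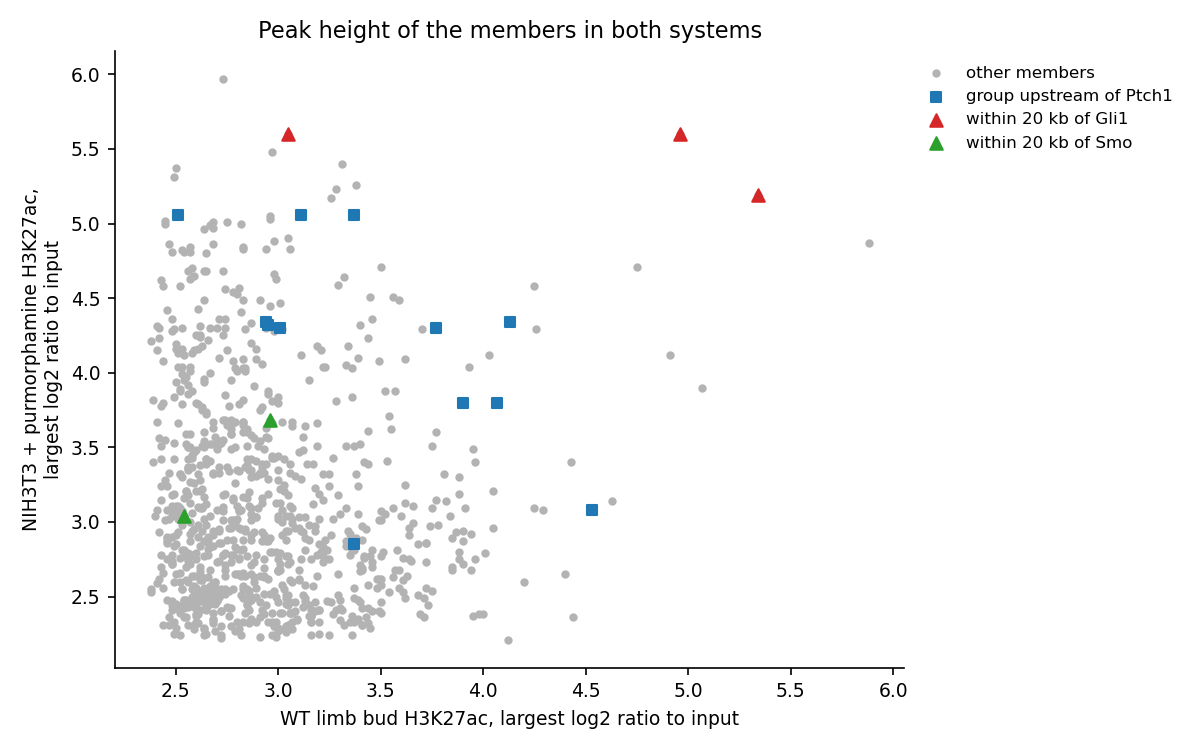
Largest log2 ratio of ChIP to input of each member in WT limb buds (horizontal) against that of the overlapping purmorphamine peak (vertical), 1 point per member, with the members at Gli1 and Smo and the 12 upstream of Ptch1 in colour. Most points lie near the lower limits of both lists, and 2 Gli1 members are high on both axes.

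The frequency of the pattern can be read against its background. No Shh-/- peak overlapped 48.5% of all WT peaks. A purmorphamine but no control peak overlapped 3.46% of all WT peaks, a control but no purmorphamine peak 3.30%, and the whole rule held for 1.92%. Among WT peaks without a Shh-/- peak, 3.97% (3.73 to 4.23%) were members and 3.64% (3.41 to 3.88%), 875 peaks, were the counterparts with a control peak alone. Among WT peaks shared with Shh-/- limb buds the corresponding numbers were 762 and 762, or 2.98% each. Over the whole list, then, overlap with the purmorphamine list alone was about as frequent as overlap with the control list alone, so membership alone did not set the 956 apart from overlap in the opposite direction.

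The numbers of members and counterparts mostly rose toward worse ranks of the WT peak, as did the number of WT peaks without a Shh-/- peak. Which of them was more numerous changed between bins. Of the 5000 best-ranked WT peaks 43 had no Shh-/- peak, and 6 of these were members while none was a counterpart, which allows a share of up to 8.20% (Wilson). The other 4957 of these 5000 WT peaks were shared with Shh-/- limb buds, and 86 of them overlapped the purmorphamine list alone and 64 the control list alone. At ranks 20001 to 25000, members were fewer, with 84 against 110 counterparts. Of the best 10000, 25 were members and 12 counterparts, out of 459 without a Shh-/- peak. From the other side, among the best 10000 the share without a Shh-/- peak was 11.0% (7.57 to 15.8%) of peaks with purmorphamine overlap alone, 5.97% (3.45 to 10.1%) of those with control overlap alone, 2.03% of those in both NIH3T3 lists and 4.59% of all. In the worse-ranked 50% of the list the same shares were 72.9% and 71.7%, beside 72.0% of all peaks. The intervals of the first pair overlap, and no test was made because the same lists chose the peaks.

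**Figure D3:**
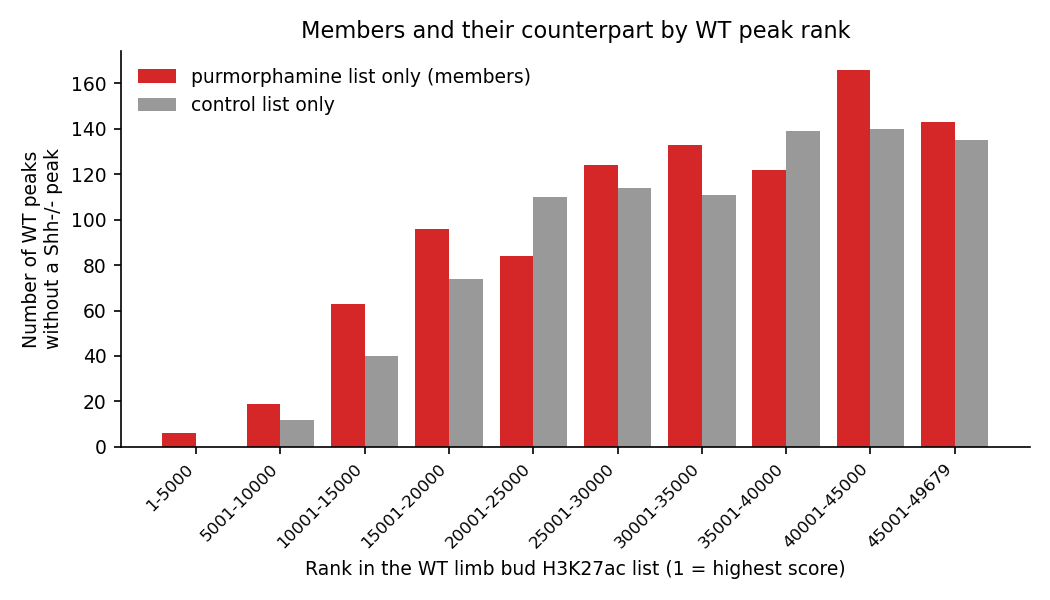
Number of WT H3K27ac peaks without a Shh-/- peak by rank in the WT list, in bins of 5000 ranks (the last is shorter), for those overlapping the purmorphamine list only (red, members) and the control list only (grey). The best 5000 ranks hold 6 and 0 peaks and the bin from 40001 to 45000 holds 166 and 140.

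Many members lay at the edge of acetylation that the inactive lists also held. A Shh-/- peak was within 500 bp of 35.4% of members (32.4 to 38.4%), a control peak within 500 bp of 45.8% (42.7 to 49.0%), and one or the other of 59.9%. The first share was 37.1% over all WT peaks without a Shh-/- peak and 45.8% of the counterparts, so it was not particular to members. A control peak was within 500 bp of 5.95% of WT peaks with neither a Shh-/- nor an NIH3T3 peak. For WT peaks that kept a Shh-/- peak and overlapped the purmorphamine list alone, that share was 39.0%. Just inside the rule, 48 members directly adjoined a Shh-/- peak, 119 adjoined a control peak and 12 adjoined both. Just outside it, 76 WT peaks failed with 50 bp, the step of the peak coordinates, inside a Shh-/- peak, and 171 failed with 50 bp inside a control peak. Conversely, 175 members (18.3%, 16.0 to 20.9%) were more than 5 kb from any Shh-/- and any control peak. Of the counterparts, 78 (8.91%, 7.20 to 11.0%) were that far from any Shh-/- and any purmorphamine peak. Of the 25 members among the best 10000 ranks, 16 were more than 5 kb from both.

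**Figure D4:**
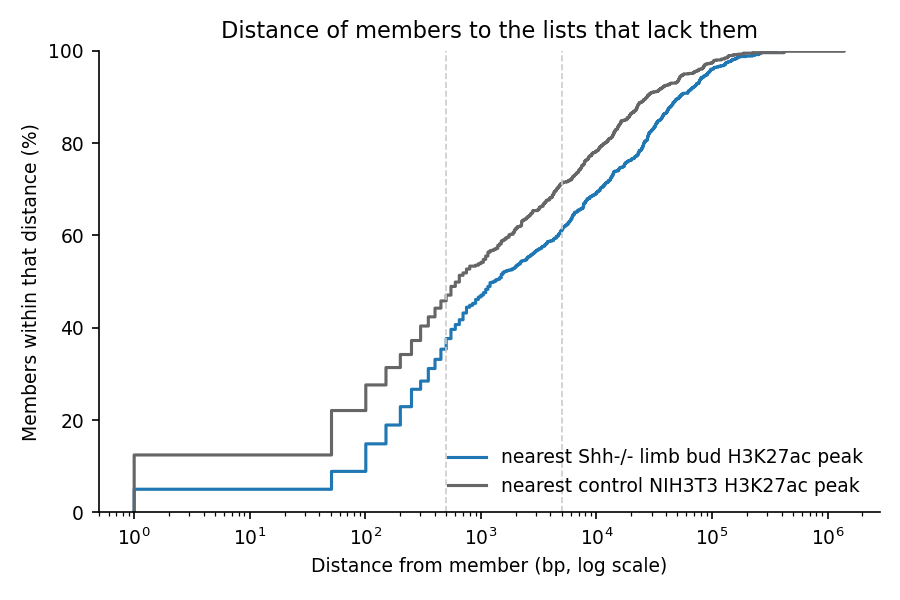
Cumulative percentage of the 956 members (vertical) by distance in bp on a log scale (horizontal) to the nearest Shh-/- H3K27ac peak and the nearest control NIH3T3 peak; dashed lines mark 500 bp and 5 kb. The control curve lies above the Shh-/- curve, with 45.8% and 35.4% of members within 500 bp.

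The 12 best-ranked members in limb were mostly distal. The first, chr13:97576700-97577749 in an exon of the predicted gene Gm5086, had rank 979, a log2 ratio of 5.88 in WT and 4.87 with purmorphamine, yet a Shh-/- peak began 151 bp from it. Besides Gli1 (ranks 2187 and 3503) followed members nearest to the starts of Lhfpl2 (rank 3082, log2 ratio 5.07), Lonrf2 (rank 3687, 4.91), BC034090 (rank 4446, 4.75) and Micall2 (rank 5065, 4.63). The next were the Ptch1 upstream member, an intron of Jarid2, a partner of the Polycomb complex (rank 6210, 4.44), a site 359042 bp from the start of Triqk (rank 6274, 4.43), the Sertad4 member with the GLI consensus (rank 6480, 4.40) and the promoter of Cep152, a centriole protein (rank 7244, 4.29). With purmorphamine the log2 ratios were 3.90 at Lhfpl2, 4.12 at Lonrf2, 4.71 at BC034090 and 3.14 at Micall2. They were 3.40 at Triqk, 3.08 at Cep152, 2.65 at Sertad4 and 2.36 at Jarid2, where 2.21 was the lowest of any member. The Lhfpl2, Jarid2 and Triqk members lay 25751, 42351 and 21351 bp from a Shh-/- peak and 7451, 13901 and 21051 bp from a control peak. The Cep152 and Lonrf2 members had a Shh-/- peak within 51 and 151 bp.

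The 8 members under the tallest purmorphamine peaks were of another kind. Besides the 3 at Gli1, and 1 not given here, they were nearest to Flcn, the folliculin gene (purmorphamine rank 8, log2 ratio 5.97), Cstad (rank 178, 5.48), the corepressor gene Bcor (rank 379, 5.40) and Sertad4 (rank 451, 5.37). In limb these 4 had ranks from 19625 to 47075 and widths of 100 to 300 bp. All 4 lay 51 to 351 bp from a control peak and 101 to 1101 bp from a Shh-/- peak. At these 4 loci both inactive lists therefore held acetylation beside the member, unlike at Gli1.

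Of the 956 members, 51.3% (48.1 to 54.4%) lay in introns, 37.9% between genes and 104 in exons, 52 of these in exons with untranslated sequence. The share at a promoter, 2 kb before to 1 kb after an annotated start site, was 21.5% (19.1 to 24.3%), against 22.6% (20.0 to 25.5%) of the counterparts, 8.88% of peaks with no NIH3T3 peak and 58.9% of those in both NIH3T3 lists. The median distance to a protein-coding start was 29932.5 bp for members, 31387 bp for counterparts and 67078 bp without an NIH3T3 peak. Members and counterparts were thus placed alike, between the limb peaks that fibroblasts lacked and those they had in both states.

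H3K4me2 in limb was not used by the rule. It overlapped 17.7% (15.4 to 20.2%) of members in WT and 14.9% (12.7 to 17.2%) in Shh-/-. The counterparts had 17.3% (14.9 to 19.9%) and 17.9% (15.5 to 20.6%), peaks with no NIH3T3 peak 6.18% and 5.52%, peaks in both NIH3T3 lists 53.4% and 50.7%, and all WT peaks 32.1% and 30.7%. Of the 169 members with WT H3K4me2, 124 also had it in Shh-/- (73.4%, 66.2 to 79.5%), beside 82.1% (75.2 to 87.4%) of 151 counterparts and 86.0% of all WT H3K27ac peaks with WT H3K4me2. There were 45 members with H3K4me2 in WT alone (4.71%) and 18 in Shh-/- alone (1.88%). These shares were 3.09% and 3.77% of the counterparts, and 4.5% and 3.16% of all WT peaks. Neither genotype had it at 80.4% of members, 79.0% of the counterparts, 81.2% of all WT peaks without a Shh-/- peak and 64.8% of all WT peaks. At promoters 55.3% of 206 members had WT H3K4me2, and away from them 7.33% (5.68 to 9.42%) of 750. The counterparts had 54.0% and 6.5%, and all WT peaks 79.3% and 9.86%, so this split was not particular to members. The difference from the counterparts in H3K4me2 kept without Shh was smaller than the width of either interval, and those intervals overlap.

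**Figure D5:**
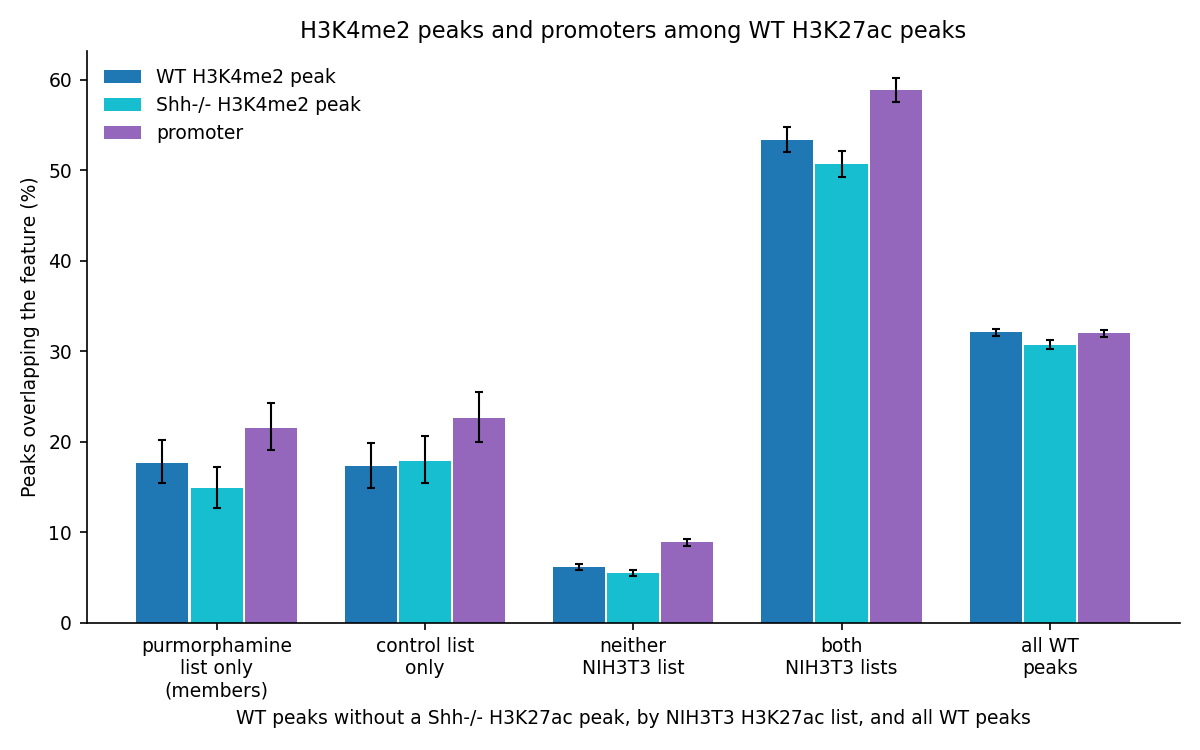
Percentage of WT H3K27ac peaks that overlap a WT H3K4me2 peak, a Shh-/- H3K4me2 peak or a promoter, for peaks without a Shh-/- H3K27ac peak grouped by NIH3T3 list and for all WT peaks; error bars are 95% Wilson intervals. Members and the control-only peaks have similar bars (17.7% and 17.3% for WT H3K4me2), between peaks in neither and in both NIH3T3 lists.

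H3K27me3 of Shh-/- limb buds overlapped 9 members, or 0.941% (0.496 to 1.78%), against 0.571% (0.244 to 1.33%) of the counterparts and 0.725% of all WT peaks. Of the 9, 3 were the Gli1 members. The best-ranked others were in an intron of Smoc1, a secreted matrix protein (chr12:81027900-81028499, rank 15865), and in Cyp1b1, a cytochrome P450 gene (chr17:79714450-79714849, rank 16367). The Smoc1 member lay 80351 bp from a Shh-/- H3K27ac peak and 4801 bp from a control peak, and the Cyp1b1 member 13151 and 301 bp. The remaining 4 were a second Cyp1b1 member and members at Zeb2, Gse1 and AC124108.1, with ranks between 27832 and 45677; these 4 are named for completeness, after their values were seen. All 9 overlapped WT H3K4me2.

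The 956 members had 639 nearest protein-coding genes, and 535 stood more than 50 kb from any other member. There were 21 groups of 4 or more members, holding 120 members, while the counterparts, joined in the same way, made 10 such groups with 48 peaks. No group of counterparts had more than 7. The spans of 7 of the 21 groups held no Shh-/- H3K27ac peak and those of 4 held neither a Shh-/- nor a control peak. These 4 were the Ptch1 upstream group, 5 members near Zfp703, a zinc finger corepressor (chr8:26828300-26833449), 5 near Fzd2, a Wnt receptor (chr11:102631350-102638949), and 4 near Triqk (chr4:13246000-13267899). They were singled out after their values were seen. In the Fzd2 group, which holds 1 of the 8 GLI consensus sites, WT log2 ratios ran from 2.48 to 3.07 and purmorphamine ratios from 2.28 to 3.00, while in the Zfp703 group they ran from 2.74 to 3.88 and from 2.30 to 3.00.

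By nearest start site the loci with the most members were Zmiz1, a transcriptional coregulator gene, with 11, the predicted gene Gm10260 and Hsd17b3 with 9 each, Ercc6l2 and Foxc1 with 8, Gse1 and Zfp703 with 7, and BC034090, Sertad4 and Scfd2 with 6. The 9 Hsd17b3 and 8 Ercc6l2 members are the 17 that lie upstream of Ptch1. Members made up 69.2% of the WT peaks without a Shh-/- peak nearest to Hsd17b3, 88.9% at Ercc6l2, 75.0% at BC034090 and 36.7% at Zmiz1. At 8 of the 10 loci no counterpart was present, and Gm10260 and Zfp703 had 1 each. The loci were picked for their number of members, so these shares and counts describe the choice. Loci picked for most counterparts were not listed. At Foxc1, a forkhead factor gene, the 8 members lay 192267 to 241717 bp from the start site with log2 ratios from 2.52 to 3.10. Over their group of 9, at chr13:31998900-32074249, the WT list had 15 peaks, the Shh-/- list none, the purmorphamine list 48 and the control list 6. At Zmiz1 the same lists had 30, 12, 112 and 62 peaks over the span of its 11 members, so there the inactive lists were not empty.

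By chromosome, 13 held the most members: 90, which were 9.41% of members, beside 5.16% of all WT peaks without a Shh-/- peak. The Ptch1 upstream and Foxc1 groups are both on it. Chromosome 18 had the lowest rate, with 2.25% of its WT peaks without a Shh-/- peak being members, against 7.25% on chromosome 13.

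Gene lists were read over the gene and 20 kb on either side. Of 21728 protein-coding genes 3.66% had a member there, and 3.73% had a counterpart. Among 22 Hedgehog pathway genes 5 had a member (22.7%, 10.1 to 43.4%) and 3 a counterpart (13.6%). Gli1, Smo, Gli3 and Sufu were among the 5. The median length of the 22 genes was 66137.5 bp against 17429 bp over all genes, and the part of locus length in this share was not tested. As a share of WT peaks without a Shh-/- peak, which takes the number of peaks into account, members were 9 of 83 at pathway genes (10.8%, 5.81 to 19.3%) beside 4.13% (3.84 to 4.45%) at all genes. Most of the pathway had none: Hhip, Boc, Cdon, Gas1, Gli2 and Ptch1 are among the 17 genes without a member.

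For 29 Hedgehog target genes, 3 (Gli1 and Tbx3 among them) had a member and 3 a counterpart, and members were 6 of 94 WT peaks without a Shh-/- peak (6.38%, 2.96 to 13.2%). Hand2, with 15 such peaks, and Hoxd13, with 14, had none; both are transcription factor genes of the posterior limb. Of 30 limb patterning genes, 3 had a member (Prrx2 and Sox9 among them) and 5 a counterpart, with a member share of 2.73% (0.932 to 7.71%). Hand2 and Hoxd13 thus had WT acetylation that was not in the Shh-/- list, but at positions that did not meet the fibroblast part of the rule.

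Of 25 genes of BMP and TGF-beta signalling, 2 had a member (Tgfbr3 and Smad5), and of 24 Wnt genes 1 did, Tcf7l1, a repressor of Wnt targets, with 7 members among its 20 peaks. In the list of AP-1 factors 1 of 9 genes had a member (Fos), and of 18 cell cycle genes 2 did (Ccnb1 and Ccnd3). None of 26 fibroblast matrix genes had one, with 0 of 44 WT peaks without a Shh-/- peak, which allows up to 8.03% (Wilson). Markers of other limb bud cells were read in the same way: 1 of 10 endothelial genes (Sox18), 0 of 6 muscle precursor genes, 0 of 6 blood genes and 3 of 8 ectoderm genes had a member. The ectoderm genes were Krt8, Krt18 and Trp63, with 3 members in all among 11 peaks (27.3%, 9.75 to 56.6%), and Krt8 and Krt18, which are neighbours, share theirs. The part of ectoderm in the pooled limb buds was not tested.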

How the data were processed

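The data were the peak lists of 7 conditions, made from 24 libraries (14 immunoprecipitations and 10 inputs). Per the labels, reads were aligned to mm10 with Bowtie2 2.2.5; by the study's methods peaks were called with CisGenome against input, with the 2 replicates of a condition together. For each peak the authors deposited an FDR, which is a q-value, a score on which the rank is ordered, the highest log2 ChIP/input ratio within it, and the −log10 of its lowest Poisson p-value. Every list had scores of at least 3.00 and −log10 values of at least 5.00, so its limit was set by these. Values of different lists were given side by side and compared by order, but their sizes were not compared. The WT list held 49679 peaks as deposited, and 10 were left out as not on chromosomes 1 to 19 or X. The other lists used held 43907 (Shh-/- H3K27ac), 36574 (WT H3K4me2), 38453 (Shh-/- H3K4me2), 20791 (Shh-/- H3K27me3), 87766 (purmorphamine) and 90969 (control) peaks. Replicate values and reads per library were not used here, so the precision is that of peak counts, given as 95% Wilson intervals, which cover counting error only. Neighbouring peaks are not independent, and these intervals are too narrow for that reason.

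Overlap was at least 1 bp. Coordinates are as deposited, with starts on a 50 bp grid, and were read as 1-based; a start counted from 0 would shift them by 1 bp. A distance is the difference between the nearest end coordinates, so touching peaks are 1 bp apart. Genes came from GENCODE vM21 (basic) and sequence from GRCm38; RefSeq supplied promoters. Overlap functions were checked on simulated intervals and the 956 members with bedtools 2.31.1.

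Members and gene lists were chosen with earlier results of these data known, and no test was made on them. Text names the 12 members best ranked in WT, the 8 with the best purmorphamine peak, those within 20 kb of Hedgehog genes, the 10 loci with most members, those with the GLI consensus and the 5 best-ranked with H3K27me3. Alternatives were a 50% overlap, a 500 bp gap, the better-ranked 50% of the WT or of every list, FDR under 0.05, merging within 1 kb, autosomes only, a narrower promoter, and other motif settings. A few of the members and genes that these rules name are not reported here. Grouping within 50 kb, the 5 kb limit and the rank bins were chosen after seeing the data.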

Additional observations from a re-analysis of the deposited data

How the results depend on the processing

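No paired analysis was possible because each list pools its replicates and no result comes from a test; leaving out a replicate was not possible for the same reason. Of 59 recomputed values 33 stayed within 1.5 times the count or within the interval of the share as reported, and 26 moved. The number of members was 267 with the better-ranked 50% of the WT list, 384 with the better-ranked 50% of every list and 420 after merging WT peaks within 1 kb. The member share of WT peaks without a Shh-/- peak was 3.70% with a 50% overlap, 4.43% with a 500 bp gap, 4.32% in the better-ranked WT list and 3.70% merged. WT H3K4me2 overlapped 13.7% (gap), 21.3% (better-ranked WT list), 20.6% (better-ranked 50% of every list) and 13.1% (merged) of members, and Shh-/- H3K4me2 11.2%, 17.6%, 18.2% and 9.76%. The H3K4me2 kept without Shh was 58.7% with the gap and 61.8% merged, and the H3K27me3 share 1.94% with the gap. The promoter share was 26.4% with a 50% overlap, 11.0% with the gap, 37.5% with the better-ranked 50% of every list, 14.3% merged and 12.8% with a promoter of 500 bp on either side. The GLI consensus was in 2.08% with the better-ranked 50% of every list, 3.10% merged, where regions are longer, and 8.16% with 1 mismatch; the causes of the other moves were not tested. Of the 956 members, 383 remained with the gap, 155 with the better-ranked 50% of every list and all 956 with FDR under 0.05, which called 976 in all. The lists' unknown depth limits every statement on absence.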
